A study of Rattus norvegicus with 2 samples.

Results

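Erythroid and haemoglobin genes were examined in whole kidneys of female PCK rats, the strain that models human autosomal recessive polycystic kidney disease. The 7 genes, chosen by name, were Hbb, Hba-a2, Ahsp, Alas2, Rhag, Gata1 and Klf1, out of 13435 genes with a named probe on the arrays. Probes were assigned to them through the transcript accession printed for each spot. This gave 7 probes for 6 of the genes, 2 of them for Rhag, while no probe carried an accession of Hba-a2. Pioglitazone, a drug that activates the nuclear receptor PPAR-gamma, was given to one group of PCK females at 10 mg/kg. The other received vehicle with 0.5% DMSO. Both were dosed by daily gavage between 4 and 20 weeks of age, and whether the drug was also given in DMSO is not given in the sources used here. The normal +/+ rats of the same experiment are not analysed here. The rats of a group contributed to a single kidney RNA pool, hybridised to 1 Agilent array with a single dye, so no spread between animals can be given. The labels differ on the pool, with 5 rats in one passage and 3 in another.

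Red blood cells carry oxygen on haemoglobin, a tetramer of alpha and beta globin chains that each hold a haem group. Globin chains, the chaperone that protects free alpha globin and the erythroid form of the first haem enzyme are made in erythroid precursors under the transcription factors GATA1 and KLF1, and reticulocytes released into the blood still hold these messages. In the adult rat red cells form in bone marrow and spleen. The adult kidney is the main source of erythropoietin, the hormone that drives red cell formation, and globin messages in whole kidney RNA are commonly taken as a sign of blood in the tissue. Whether blood was flushed from these kidneys is not given in the sources used here. In pooled tissue, fewer erythroid cells and less RNA per cell cannot be told apart.

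For 3 members with a usable signal on both arrays the promoters are printed as background, with matches to 3 short patterns marked. Each stretch is the 140 bases before the transcript start on the gene's own strand, from RefSeq on GRCr8. Capitals mark matches on either strand to GATAA, the core of GATA sites, to CCNCNCCC, the CACCC type box of KLF1, and to CCAAT. The Hbb stretch is chr1:167663722-167663861 (minus strand), the Klf1 stretch chr19:40158652-40158791 (minus strand) and the Alas2 stretch chrX:22895310-22895449 (plus strand).
Hbb: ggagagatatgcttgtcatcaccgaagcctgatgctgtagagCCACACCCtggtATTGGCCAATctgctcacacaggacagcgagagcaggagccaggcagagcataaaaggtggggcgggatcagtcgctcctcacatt
Klf1: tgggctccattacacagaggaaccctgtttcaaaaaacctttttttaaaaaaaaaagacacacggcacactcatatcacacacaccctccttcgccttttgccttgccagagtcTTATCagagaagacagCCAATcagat
Alas2: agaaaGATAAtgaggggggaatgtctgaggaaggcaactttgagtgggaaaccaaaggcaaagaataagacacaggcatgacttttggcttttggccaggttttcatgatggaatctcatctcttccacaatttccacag
In Hbb the CACCC type match lay 98 to 91 bases before the start and was followed by 2 back-to-back CCAAT matches on opposite strands. In Klf1 the GATAA match lay 26 to 22 bases before the start, on the opposite strand, with a CCAAT match 10 to 6 bases before it. In Alas2 the only match was GATAA, 135 to 131 bases before the start. No promoter was found under the name Ahsp, so that member is not covered. Over the 250 bases before the start, 4 of the 6 members with a RefSeq promoter held GATAA, 3 held CCNCNCCC and 4 held CCAAT. In these windows none of the 3 patterns overlapped another. Among 33469 promoters of the same length the shares with a match were 23.5%, 42.8% and 34.0%. None of the 3 patterns was in all 3 printed promoters. These matches describe letters and do not show binding, and their part in the differences was not tested.

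All 4 erythroid genes that could be measured on both arrays had differences below 0, and 1 of them passed the criterion for lower genes. Ahsp, which encodes the chaperone of free alpha globin, was 1.96-fold lower. Alas2, the erythroid enzyme that starts haem synthesis, Hbb, a beta globin chain, and Klf1, the erythroid transcription factor, were at vehicle-to-pioglitazone ratios of 1.47, 1.38 and 1.29, short of the 1.5-fold difference used here. Gata1 and Rhag gave signals at the detection limit, and Hba-a2 had no named probe.

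Signals are the scanner software's background-subtracted intensities in arbitrary units. Differences are pioglitazone minus vehicle on the log2 scale after each array was scaled by its 75th percentile. A gene counted as measured when its brightest probe was well above background on both arrays, and was called higher or lower when its difference reached 1.5-fold and lay beyond 2 technical errors, the software's errors of both spots combined. By this criterion 1 of the 4 measured members was lower and 0 were higher. Over all 10484 measured genes 1.76% were lower, 0.754% higher and 2.51% either. That split of 184 lower and 79 higher genes was 132 and 109 with median scaling and 118 and 130 without scaling. The median difference was -0.51 over the 4 members and 0.03 over all measured genes, of which 43.8% were below 0. These are descriptions of 2 arrays, with no replicate check and no p-value. The technical error is the software's estimate, not a measured scatter. On the vehicle array the Hbb error was 227 on a signal of 2270. For brighter spots the technical error was nearly constant, at 0.204 for Hbb and Alas2 and in the median over measured genes. Over replicate spots the standard deviation of the difference was smaller for Aqp2 (0.06) and Hmox1 (0.12), both with technical errors near 0.20.

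Among the globin machinery, the Hbb probe gave 2270 on the vehicle array and 1740 on the pioglitazone array. Its difference was -0.47, and the range of 2 technical errors on either side ran from -0.87 to -0.06. The median pixel of the spot was 2289 against 1786, over a local background of 19 on both arrays, so the direction was the same before correction. Of all measured genes, 3.50% had a difference as low as that of Hbb.

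Ahsp gave 300 with vehicle and 162 with pioglitazone. The difference was -0.97 with a range from -1.38 to -0.56, the largest of the measured members in either direction. Before correction the spot read 374.5 and 214.5. Only 34 of the 10484 measured genes (0.324%) had a difference this low, and 3 of the 2749 genes whose geometric mean signal was between 200 and 1000, Ahsp included. The Ahsp difference lay below that of Klf1 by -0.61 and below that of Hbb by -0.51. Both were within 2 combined technical errors, 0.62 and 0.58, and this held for all 6 pairs of measured members. With quantile scaling the Ahsp and Klf1 contrast was -0.64 and with cyclic loess -0.63, just beyond 0.62.

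Alas2 gave 1290 with vehicle and 927 with pioglitazone. Its difference of -0.56 had a range from -0.97 to -0.15, and 2.17% of measured genes were as low. Among the 2909 genes with a geometric mean signal between 1000 and 10000, 19 were as low as Alas2 and 33 as low as Hbb. Alas2 sat close to the 1.5-fold line and passed it under cyclic loess scaling, at -0.59.

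Of the regulators, Klf1 gave 32.0 with vehicle and 26.3 with pioglitazone. The difference of -0.37 was within 2 technical errors, with a range from -0.83 to 0.10, and 6.18% of measured genes were as low. Gata1, the master regulator of the lineage, read 7.01 with vehicle and 8.12 with pioglitazone. Only the second was well above background, a class that began at 7.66 on the vehicle array and 7.16 on the pioglitazone array. Set against that limit the pioglitazone signal was level with it after scaling, so no difference in Gata1 can be given a size.

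Rhag, the Rh-associated glycoprotein, which conducts ammonia in the Rh complex of the red cell membrane, was at the limit as well. Its first probe read 1.59 with vehicle and 7.91 with pioglitazone. The spot's median pixel was 30 and 35, over local backgrounds of 22 and 17.5. Of 153 negative control spots, 131 read as high as the vehicle spot and 1 as high as the pioglitazone spot. The second probe read 1.66 and 1.60 and was not well above background on either array. No fold is given for Rhag, because the bound was below 1, and its high raw ratio came from a single dim spot that the other probe did not share.

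**Figure D1:**
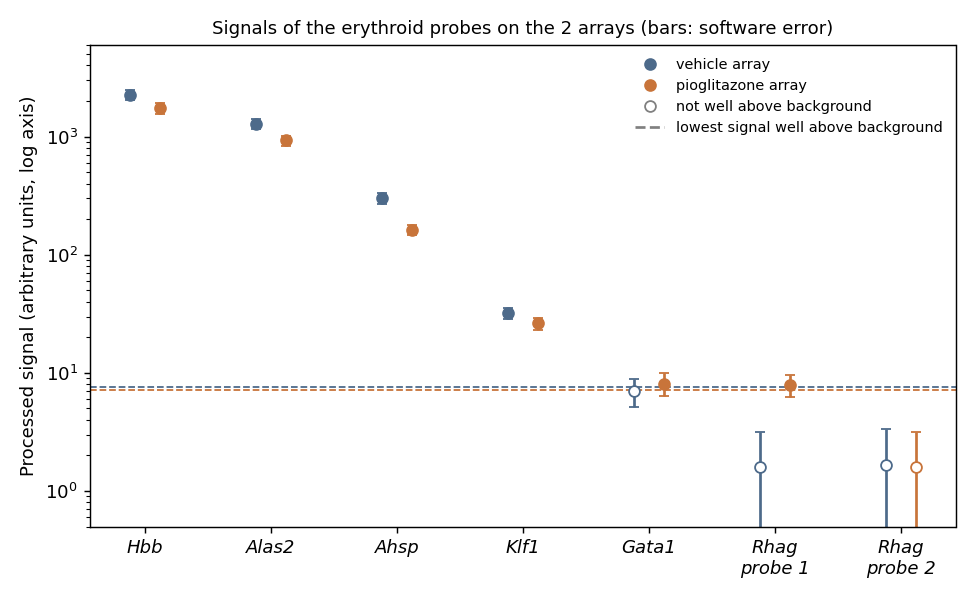
Processed signal of each member's probes (y axis, arbitrary units, log axis) on the vehicle array and the pioglitazone array, with bars for the software's error; heights of different probes are not comparable. Each pioglitazone point of Hbb, Alas2, Ahsp and Klf1 sits below its vehicle point, while Gata1 and the Rhag probes lie close to or below the dashed detection limits of 7.66 and 7.16.

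Of the 7 measured globins besides Hbb, 0 met the criterion. The alpha globin gene Hba-a3 gave 68800 with vehicle and 59100 with pioglitazone, a difference of -0.30. The beta globin gene Hbb-b1 gave 61900 and 56000, a difference of -0.23. Both lay within 2 technical errors of 0.41. Alpha globin genes are near copies of one another, as are beta globin genes, so a probe may also read transcripts of its relatives, and Hba-a2 cannot be separated from Hba-a3 here. Ahsp minus Hba-a3 was -0.67, more than 2 combined technical errors of 0.58, but -0.54 and within them with normexp background correction. Hba-a3 minus Hbb was 0.16 and Hbb-b1 minus Hbb was 0.24, both within 2 combined technical errors of 0.58.

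The epsilon globin Hbe2 gave 218 and 193 (-0.26), and Hbg1 gave 38.9 and 49.7 (0.27). Embryonic Hbz and Hbe1 were not well above background on either array. The globins of tissues other than blood were near 0: Cygb, cytoglobin of fibroblasts, at -0.07, Mb, muscle myoglobin, at 0.02, and Ngb, neuroglobin, at 0.10. The sign of Cygb turned without scaling (0.01), that of Mb under cyclic loess (-0.002) and that of Ngb with normexp (-0.05).

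Other erythroid genes did not all share the direction. Of 37 such genes listed, 22 had a named probe and 20 were measured. Of these, 2 were lower by the criterion and 0 higher, with 13 below 0, 7 above and a median of -0.08. The split was 10 and 10 with median scaling or without scaling, and 16 and 4 with normexp. Rhd, the Rh antigen polypeptide of the red cell membrane, gave 130 with vehicle and 78.2 with pioglitazone, a difference of -0.82. Add2, the beta chain of the membrane skeleton protein adducin, gave 74.3 and 50.3 (-0.65). Its second probe had the same direction but was not well above background on both arrays. Rhd shifted less with normexp correction (-0.49), as did Add2 (-0.31), and neither then met the criterion. Without scaling Rhd alone met it.

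Several regulators of red cell formation were below 0 without meeting the criterion. Hemgn, a nuclear protein of erythroid cells, was at -0.70 from dim signals of 14.3 and 9.31, within 2 technical errors, and met the criterion with the percentile taken over detected probes. Nfe2, the transcription factor that acts on globin genes, was at -0.47. Epor, the erythropoietin receptor, was at -0.35 and Lmo2, a partner of GATA1 and TAL1, at -0.39. With normexp correction Hemgn was at -0.23, Nfe2 at -0.18 and Epor at -0.10. Tal1, the third factor of that complex, was at -0.04, with its 3 measured probes between -0.04 and 0.18. In the same list Ldb1 was at -0.003 and Cited2 at 0.04.

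Genes of the red cell membrane and metabolism other than Rhd and Add2 did not meet the criterion. Slc4a1, the anion exchanger band 3, is made in red cells and, in a shorter form, in intercalated cells of the collecting duct. Its brighter probe gave 3810 with vehicle and 3940 with pioglitazone (-0.03), and its dimmer probe 94.2 and 87.7 (-0.19). The value of the brighter probe was 0.05 without scaling. Glycophorin C (Gypc) was at 0.09, the carbonic anhydrase Car1 at 0.04, the 2,3-bisphosphoglycerate enzyme Bpgm at 0.02 and the membrane protein Epb42 at -0.13. Further below 0 were Tmod1 at -0.34 (-0.14 for its dimmer probe), Alox15 at -0.33 and Slc25a37 at -0.27, while Fam210b was at 0.14. Each of these lay within 2 technical errors.

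**Figure D2:**
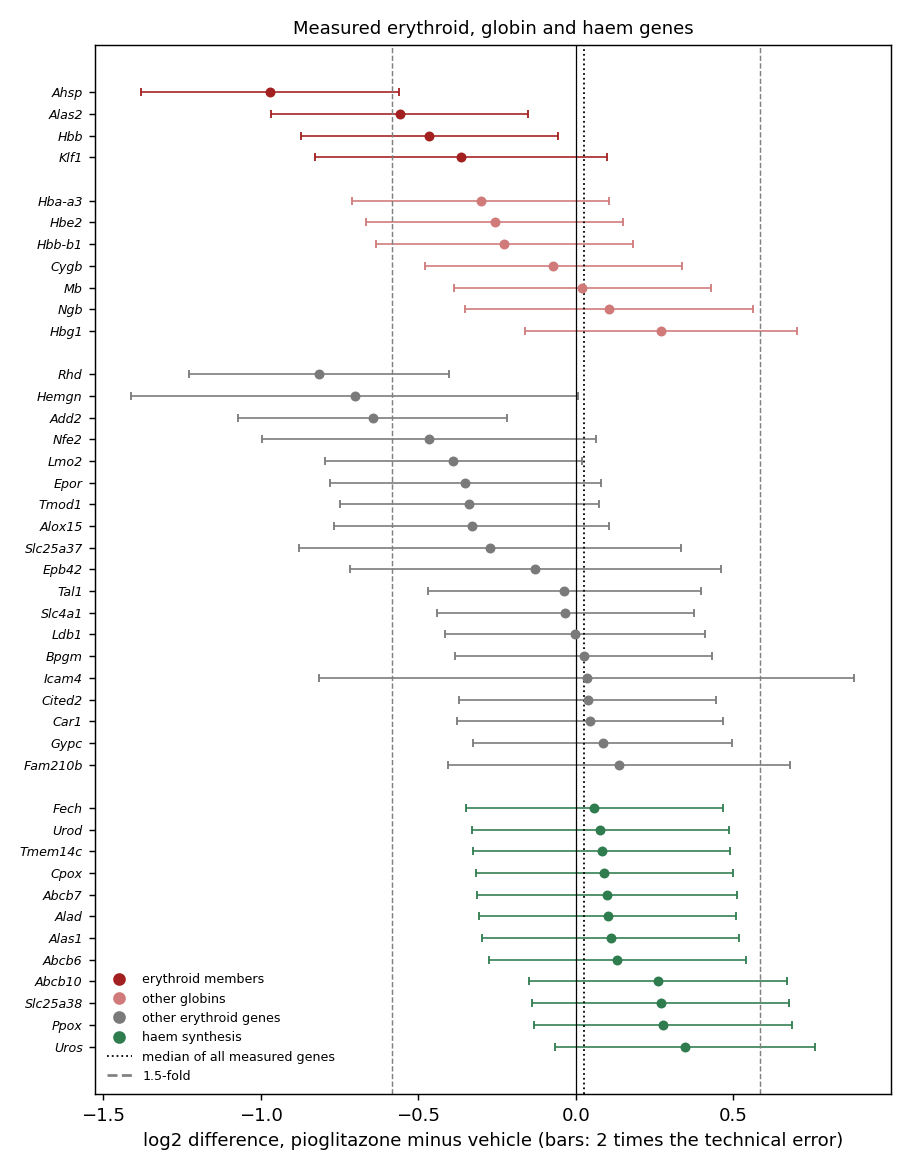
log2 difference between pioglitazone and vehicle (x axis) for measured erythroid, globin and haem genes, with bars of 2 technical errors, dashed lines at 1.5-fold and a dotted line at the median of all measured genes (0.03). The 4 members lie between -0.97 and -0.37, the other globins between -0.30 and 0.27, and the haem synthesis genes between 0.06 and 0.35.

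The haem pathway outside Alas2 lay on the other side of 0. All 13 measured genes of haem synthesis and transport had positive differences, with a median of 0.11, although 0 met the criterion. Each of the 13 lay within 2 technical errors. Over all measured genes the median was 0.03 and 43.8% were below 0. The 13 haem genes stayed positive under every scaling and with normexp. Alas1, the form of the first enzyme that all tissues use, gave 14700 with vehicle and 16800 with pioglitazone, a difference of 0.11. Uros was at 0.35, Ppox at 0.28, the mitochondrial glycine carrier Slc25a38 at 0.27 and the transporter Abcb10 at 0.26. The last enzyme, Fech, was at 0.06.

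Alas1 and Alas2 encode the same step in different cells, so their contrast sets the erythroid form against the general one on the same arrays. Alas1 minus Alas2 was 0.67, beyond 2 combined technical errors of 0.58, though with normexp it was 0.57 and just within them. The Rh family also has erythroid and epithelial members. Rhcg, the ammonia channel of intercalated and principal cells, gave 5950 and 7670 (0.28) and Rhbg, its basolateral relative, 3600 and 3960 (0.06), while the red cell polypeptide Rhd was lower. Rhcg exceeded Rhd by 1.10 and Rhbg exceeded it by 0.87, each beyond 2 combined technical errors of 0.58. With normexp these were 0.78 and 0.576, the second within 0.581.

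**Figure D3:**
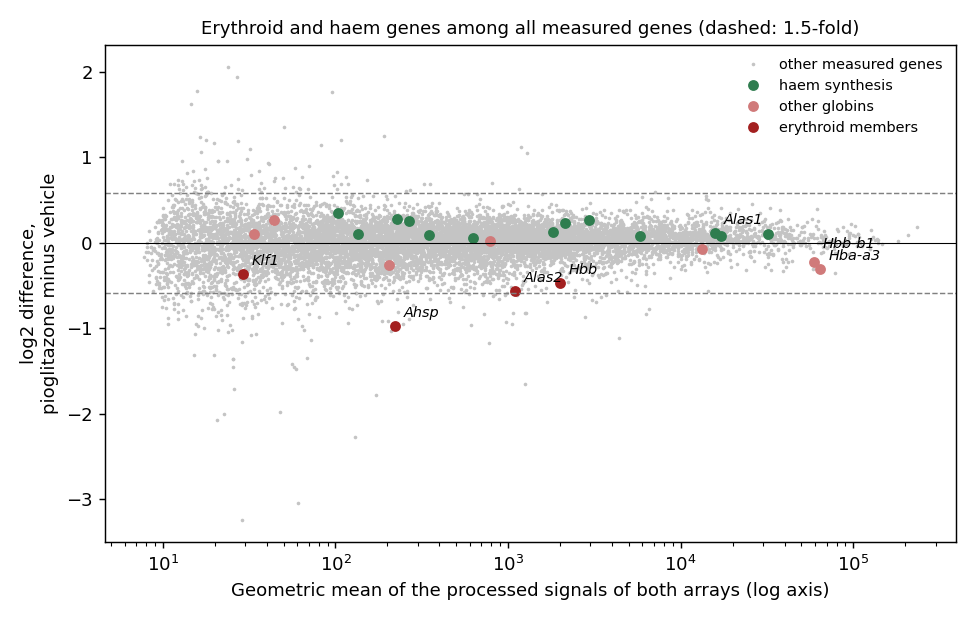
log2 difference between pioglitazone and vehicle (y axis) against the geometric mean signal of both arrays (x axis, log axis) for the 10484 measured genes, with the erythroid members, other globins and haem synthesis genes coloured and dashed lines at 1.5-fold. Ahsp lies at the lower edge of the cloud for its signal, Klf1 lies inside the wide cloud of dim genes, and the brightest globins Hba-a3 and Hbb-b1 sit at -0.30 and -0.23.

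The hormone of the pathway gave no readable signal. The Epo probe was printed in 10 spots, of which 0 were well above background on either array, with signals between 1.57 and 3.01 with vehicle and between 1.47 and 3.73 with pioglitazone. Of the 8 measured genes of oxygen sensing, 0 met the criterion, 4 were below 0 and 4 above, with a median of -0.00053. Without scaling 2 were below 0 and 6 above, and without the middle grid rows, the sixth and the seventh of 10 bands on the array, 5 were below and 1 above. The prolyl hydroxylase Egln3 was at -0.25, the factor inhibiting HIF (Hif1an) at 0.23, Epas1, which encodes HIF-2 alpha, at -0.17, and Egln2 at 0.08.

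Genes that bind, clear or store haem and iron were spread around 0. Of 22 measured, 1 was lower and 0 higher, with 11 on each side of 0 (7 below and 14 above without scaling). The one lower gene was Hpx, hemopexin, the plasma protein that binds free haem, at 73.4 with vehicle and 45.4 with pioglitazone (-0.78); with normexp correction it did not meet the criterion. Ceruloplasmin (Cp) was at -0.42 and transferrin (Tf) at -0.40. The haem-degrading enzyme Hmox1, in 10 spots that were all below 0, averaged -0.30 and ranged from -0.56 to -0.20. The transferrin receptor Tfrc was at 0.04, haptoglobin (Hp) at 0.02 and the ferritin chains Fth1 and Ftl1 at 0.02 and 0.18.

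Markers of other blood cells were read on the same arrays for comparison. Of 9 platelet genes with a probe, 4 were measured and 0 met the criterion, with a median of -0.03. P2ry12, which macrophage-lineage cells also express, was at -0.49, Pf4 at -0.10, Gp9 at 0.06 and Gp1bb at 0.04, while Ppbp, Gp5, Itgb3 and Selp were not well above background on either array. The sum of the unscaled signals over the 9 genes was 1298 with vehicle and 1296 with pioglitazone. Heights of different probes are not comparable, and such sums mostly follow the brightest probes, here Pf4 at 747 and 737. Summed over the 4 measured genes alone, the log2 ratio after scaling was -0.10. The median was 0.05 without scaling. Of 15 neutrophil genes with a probe, 8 were measured, with a median of -0.01 that was 0.07 without scaling. Fcnb was at -0.46, S100a8 at -0.45 and Np4 at 0.16, and the partner of S100a8, S100a9, was at -0.06. Cebpe, a transcription factor of granulocytes, was higher at 0.65 from dim signals of 13.5 and 22.5. With normexp it did not meet the criterion, and its spot lies in the middle grid rows left out in one alternative. Camp, Cxcr2, Mmp8, Elane and Ctsg were not well above background on either array. The sum of the unscaled signals over the 15 genes was 2013 with vehicle and 2156 with pioglitazone. Summed over the 8 measured genes alone, the log2 ratio after scaling was 0.0087.

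Lymphocyte and macrophage markers had negative differences. All 11 measured lymphocyte genes were below 0, with a median of -0.30. Of these 1 was lower, the T cell adhesion receptor Cd2 (-0.88), from dim signals of 22.0 and 12.7. With median scaling or without scaling 10 of 11 were below 0. Cd2 had no value without the middle grid rows, and with normexp Cd3g met the criterion in its place. Cd3g was at -0.55, Cd4 at -0.50 and Cd5 at -0.36. The unscaled sum over the 12 genes with a probe was 1986 with vehicle and 1735 with pioglitazone. Summed over the 11 measured genes alone, the log2 ratio after scaling was -0.28. All 12 measured macrophage genes were below 0, with a median of -0.35, and 3 were lower: the integrin Itgam (-0.77), Trem2 (-0.66) and Gpnmb (-0.62). All 12 were below 0 under every scaling, while Itgam alone met the criterion without scaling and Trem2 and Gpnmb with normexp. Itgam was dim, at 24.3 with vehicle and 15.1 with pioglitazone. The pioglitazone signals of Itgam and Cd2 were below 16.2, the highest negative control signal on that array. Cd68 was at -0.43, and Marco was not well above background. The unscaled sum over the 13 genes with a probe was 29418 and 26405. Summed over the 12 measured genes alone, the log2 ratio after scaling was -0.24. The part of these cells in the erythroid result was not tested.

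Endothelial and kidney epithelial genes lay on both sides of 0. Of 11 measured endothelial genes, 0 met the criterion and 5 were below 0, with a median of 0.04. With normexp 8 were below 0, with a median of -0.02, and without scaling 3 were. Their unscaled sums were 16305 and 19070, a log2 ratio of 0.14 after scaling. Kdr alone gave 11000 and 13500 of these sums. Cdh5, VE-cadherin, was at 0.37, Plvap at -0.23, Erg at -0.22 and the receptor Kdr at 0.21. Of 12 measured epithelial genes, 0 met the criterion and 2 were below 0 (4 with cyclic loess), with a median of 0.16. The intercalated cell factor Foxi1 was at 0.42, Atp6v1b1 at 0.37 and the water channel Aqp2 at -0.34. Umod, the defining gene of the thick ascending limb, gave 195000 with vehicle and 220000 with pioglitazone, bright on both arrays.

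**Figure D4:**
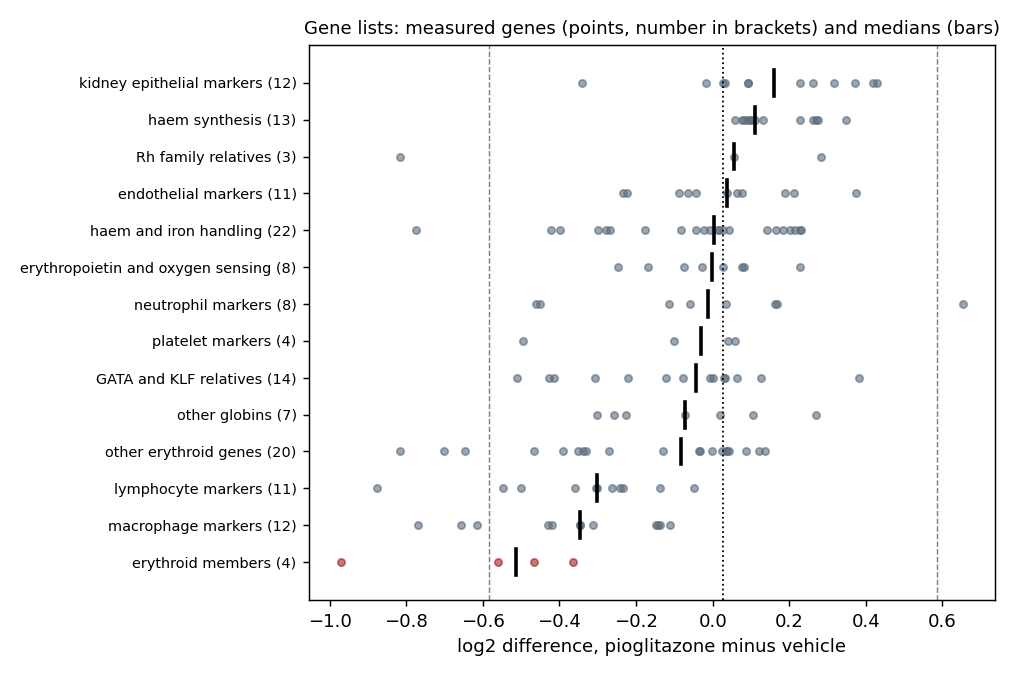
log2 difference between pioglitazone and vehicle (x axis) for measured genes of each list (points, number in brackets) with the list's median as a bar, dashed lines at 1.5-fold and a dotted line at the median of all measured genes. The median of the 4 erythroid members is -0.51, those of macrophage and lymphocyte markers are -0.35 and -0.30, and those of platelet and neutrophil markers are -0.03 and -0.01.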

How the data were processed

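The authors deposited 1 scanner file per pool, made with Agilent Feature Extraction 10.7.3.1 per the submitters' processing notes and the file headers. Its processed signal is a spot intensity, background-subtracted and detrended, and the arrays were not scaled to each other. The value table deposited beside it held the same intensity at each of 45018 features, with column medians of 46.8 and 47.7. Of 43379 spots besides controls, 71.8% (vehicle) and 73.1% (pioglitazone) were well above background, and 0 were saturated.

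The 149 spots flagged as outliers were dropped. From log2 signals the 75th percentile of that array was taken off, a shift of 0.08 between arrays. Replicate spots were averaged, and a gene took its brightest probe. RefSeq accessions on GRCr8, without versions, named 16964 of 41012 probes, of which 0 had several symbols. The design of the files is on rn4, so coordinates are given for RefSeq promoters only. For a gene detected on 1 array, the bound divides that signal by the other array's detection limit, or by the dim spot where that was higher. The technical error was averaged over replicate spots, and holds no spread between animals. The number of arrays limits the precision. Python 3.11.15 and limma 3.58.1 (quantile, cyclic loess and normexp alternatives) were used.

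The members and lists were chosen with earlier results of these data known. The text names all members, Epo and Slc4a1, and in each list the genes past the criterion, those seen on 1 array with a bound of 1.5-fold, and up to 4 with the largest difference. Other list genes are named for their role, with values known. Some list genes that enter the counts and medians are not reported here by name. Alternatives were scaling, background correction, filter, flags, probe rule, grid rows and criterion.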

Additional observations from a re-analysis of the deposited data

How the results depend on the processing

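The differences of Ahsp, Alas2, Hbb and Klf1 stayed below 0 under the 6 alternatives to scaling and background correction. The alternatives of filter, flags, probe rule and grid rows left their values as they were, since none of these choices touches their spots. Ahsp ranged from -0.98 to -0.80, Alas2 from -0.59 to -0.45, Hbb from -0.50 to -0.38 and Klf1 from -0.38 to -0.18. The median over members ranged from -0.54 to -0.42. Its upper end came without the filter on dim probes, which let in Gata1 and Rhag, both above 0 and at the detection limit. The count of lower members, 1, was 2 with cyclic loess, which added Alas2, and 0 at a 2-fold criterion. The haem synthesis median lay between 0.08 and 0.19. The median of other erythroid genes ran from -0.13 to 3.6e-05 and that of other globins from -0.14 to 0.01, with both above 0 without scaling. Medians of the platelet, neutrophil, oxygen sensing, haem and iron, endothelial, and GATA and KLF lists lay near 0, and each turned sign under at least 1 alternative. Over all genes, 184 lower and 79 higher became 47 and 10 with normexp, 118 and 130 without scaling, 229 and 128 with no filter, and 31 and 17 at 2-fold. The cause was not tested. Normexp used median signals with an offset of 50. Without the middle grid rows (the sixth and the seventh of 10 bands) Alas1, Hbb-b1, Hbg1 and Gypc gave no value. Signals near background limit Gata1, Rhag and Epo. No paired analysis was possible because neither treatment was hybridised more than once.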

Other observations

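Relatives of the erythroid transcription factors were read on the same arrays. Of 14 measured GATA and KLF genes besides Gata1 and Klf1, 0 met the criterion, 9 were below 0 and 5 above, and the median was -0.04. The split was 7 and 7 with median scaling. Klf5, an epithelial factor, gave 560 with vehicle and 416 with pioglitazone (-0.51). Its dimmer probe gave 29.6 and 16.6 (-0.92), and Klf5 met the criterion with the mean over its probes. Gata3, which is active in the collecting duct and in T cells, gave 197 and 155 (-0.43). Klf6 gave 9760 and 7750 (-0.42), and Klf9 gave 3050 and 4210 (0.38). The dimmer Klf9 probe had the opposite sign, at 566 and 534 (-0.17), and the dimmer Klf6 probe was at -0.21. Gata2, a factor of early blood progenitors and endothelium, was at -0.12, and Klf2, a factor of endothelium, was at 0.06.

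Over 2 arrays the only pattern is a single difference. The 3 measured genes outside the lists whose difference lay nearest to the members' median of -0.51 were Serpine2, Zbtb33 and Bnipl, each at -0.51. Serpine2 gave 283 and 210, Zbtb33 11.8 and 8.76, and Bnipl 120 and 89.1.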
